A study of Homo sapiens with 12 samples.

Results

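The splicing factors described here are the genes of the SR, hnRNP and TRA2 families, chosen by symbol: *SRSF* followed by a number, *HNRNP* followed by letters or numbers, and *TRA2A* or *TRA2B*. The rule found 39 genes among the 26485 of the count table, 12 SR, 25 hnRNP and 2 TRA2 genes, once 4 pseudogenes that match the pattern were left out. Their RNA was measured by RNA-seq of poly(A) RNA in wild-type HEK293 cells, a human line derived from embryonic kidney, which received 1 μg of plasmid and were collected 48 hr later. PEG10 is a domesticated retrotransposon gene that codes for a gag protein and, after a ribosomal frameshift, for a longer gag-pol protein. Cells received the long form (gag-pol), the gag form alone (gag), the nucleocapsid piece of gag, which holds its zinc finger (NC), or LifeAct-Dendra2, a fluorescent actin-binding protein, as control. The control is named so by the labels, and the study's methods speak of a pCDNA negative control in the pathway analysis. The study's list of resources places its LifeAct construct in a pCDNA plasmid, as it does these PEG10 constructs. Each construct had 3 libraries. Expression came from transient transfection of a plasmid, so a library mixes cells that took up different amounts of it, and fewer cells with a transcript cannot be told apart from less of it in each cell.

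SR proteins bind exons through RNA recognition motifs and recruit the splicing machinery through a tail rich in arginine and serine, which kinases phosphorylate. The hnRNPs coat nascent RNA and often favour exon skipping, and TRA2 proteins are SR-like factors that bind purine-rich exonic enhancers. Many of these genes regulate their own level by splicing in a poison exon, which sends the transcript to nonsense-mediated decay. A count per gene sums such transcripts with those that code for protein.

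Libraries held 30625725 to 45316749 counts. *PEG10*, the check of the labels, took 0.0230 to 0.0346% of the counts in control. Its share was 2.80 to 7.35% in gag-pol libraries, 3.78 to 6.10% in gag libraries and 0.238 to 0.389% in NC libraries, all above control. The HEK293 markers *VIM* (15559 to 25813 normalized counts), *NEFL* (3135 to 11698), *PAX2* (518 to 889) and *NEFM* (42.2 to 122) were detected in all 12 libraries. The leukocyte marker *PTPRC* was at 0 in 10 libraries and at most 6.6 in the others, and the highest values were 51.9 for *ALB*, 30.9 for *PECAM1*, 420 for *CDH1* and 1611 for *COL1A1*. Normalized counts are counts scaled for library size and composition.

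Of the 39 genes, 37 could be tested. *HNRNPCL3* and *HNRNPCL4*, members of the *HNRNPC*-like cluster on chromosome 1, had 0 counts in all 12 libraries. *HNRNPH2*, a near relative of *HNRNPH1*, had only 12 to 38 counts per library, *HNRNPCL2* 16 to 32 and *HNRNPCL1* 42 to 85. Of the merged exon length of *HNRNPH2*, 15.8% is shared with *RPL36A-HNRNPH2*, so its count is uncertain and need not reflect its RNA level. The other 34 were detected in every library. On GRCh38, the SR genes that the results turn on lie at chr6:36594353-36605600 (*SRSF3*), chr20:43457893-43466046 (*SRSF6*), chr1:23964347-23980927 (*SRSF10*) and chr6:89095959-89118071 (*SRSF12*). *TRA2A* lies at chr7:23504780-23532041, and the hnRNP genes lie at chr12:54280193-54287088 (*HNRNPA1*), chr2:177212694-177223959 (*HNRNPA3*), chr5:179614178-179634784 (*HNRNPH1*) and chr19:38836370-38852347 (*HNRNPL*). Counts are summed over all exons of a gene.

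Levels between genes were compared as counts per kilobase of merged exon per 1000000 counts other than *PEG10*. In control, *HNRNPAB*, a member that shuttles between nucleus and cytoplasm, was highest with 219 ± 28.1 (SD, n = 3). *HNRNPA1*, an abundant repressor of exon inclusion, followed with 193 ± 28.3, and these neighbours differed by less than their SDs. *HNRNPUL1* stood at 143 ± 9.63 and *HNRNPF* at 136 ± 10.1, again within their SDs. The highest SR genes were *SRSF2* with 80.9 ± 7.34 and *SRSF1* with 79.5 ± 6.96, both of them founding members of the family, by merged exons. *SRSF12* was the lowest SR gene with 3.56 ± 0.694, against 20.1 ± 3.57 for its closest relative *SRSF10*. The order depended on the length used, an alternative added after the data had been seen. With the length of the canonical transcript, *HNRNPH1* led with 386 ± 44.1 (rank 9 by merged exons, at 91.2 ± 10.4), and *HNRNPAB* had rank 5 with 262 ± 33.6. Among SR genes *SRSF2* (128 ± 11.6) then stood level with *SRSF4* (127 ± 4.63), and *SRSF9* (116 ± 18.3) and *SRSF3* (94.2 ± 13.1) stood above *SRSF1* (86.0 ± 7.53).

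**Figure D1:**
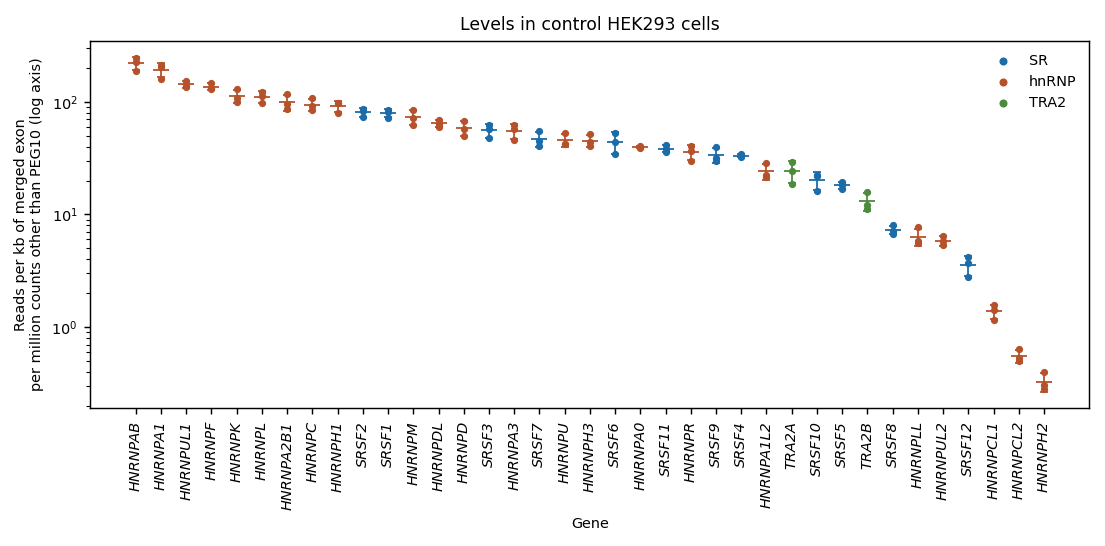
Counts per kilobase of merged exon per 1000000 counts other than *PEG10* (log axis) for the 37 splicing-factor genes with counts, in the 3 control libraries (points) with their mean and SD (bars). hnRNP genes hold the top of the order, with *HNRNPAB* at 219 and *HNRNPA1* at 193, and *SRSF12*, at 3.56, is the lowest SR gene.

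With gag-pol, 1 gene rose and 3 fell against control: *SRSF12* was higher, and *SRSF10*, *HNRNPH1* and *HNRNPL* were lower. These 4 are 10.8% of the 37 tested, and over all 17176 genes tested 11.3% were called, 5.48% higher and 5.83% lower. The share of splicing factors called was therefore near that of all genes. No splicing factor was called without the replicate number in the fit. None of them was called either without control replicate 3, gag-pol replicate 3 or all libraries of replicate number 1 or 3. The share of all genes called in these fits is not given, so the losses cannot be read as particular to splicing factors.

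*SRSF12*, an SR protein that acts as a repressor of splicing in biochemical assays, had 594, 701 and 466 normalized counts in control and 844, 797 and 841 with gag-pol. With NC it had 816, 873 and 830, and with gag 657, 831 and 562. All gag-pol and NC libraries lay above all control libraries, while gag replicate 2 reached their range. The log2 fold change was 0.51 ± 0.12 (SE, adjusted p = 0.00979) with gag-pol, a level 42.8% above control (95% interval 19.5 to 70.7%). Control replicate 3 was the lowest library. When each library and each replicate number was dropped in turn, the value ran from 0.34 to 0.68 and the call was kept in 10 of 15 fits.

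*SRSF10*, which represses splicing when it is dephosphorylated, had 9139, 7036 and 9792 normalized counts in control and 8345, 5865 and 6496 with gag-pol. With NC the values were 8670, 6024 and 6998, and with gag 9924, 7564 and 8672. Replicate 2 was the lowest with every construct and the groups overlapped, but within each replicate number gag-pol and NC lay below both gag and control. The fold change with gag-pol was -0.33 ± 0.08 (adjusted p = 0.0104), and the call was kept in 11 of the 15 reduced fits. The log2 ratio of *SRSF12* to *SRSF10* was -3.94, -3.33 and -4.40 in control and -3.31, -2.88 and -2.95 with gag-pol. The NC libraries gave -3.41, -2.79 and -3.08 and the gag libraries -3.92, -3.19 and -3.95. Within each replicate number the ratio was therefore higher with gag-pol and NC than with gag and control. The ratio restates the values of these genes given above and is not a separate result.

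*HNRNPH1*, which binds runs of guanine, had 32729, 27752 and 33560 normalized counts in control and 28829, 23536 and 23222 with gag-pol. With NC it had 30734, 23138 and 25488, and with gag 30316, 26348 and 28415. Gag-pol and NC were below control in each replicate number, and gag lay between them and control except in replicate 1, where it was under NC. The fold change with gag-pol was -0.32 ± 0.08 (adjusted p = 0.0136), and the call was kept in 11 of the 15 reduced fits. Its relative *HNRNPF* gave -0.03 (95% interval -0.18 to 0.12).

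*HNRNPL*, which binds CA-rich RNA, had 25630, 23507 and 29212 normalized counts in control and 23156, 20230 and 22927 with gag-pol. It had 25538, 23485 and 24848 with NC and 23429, 22479 and 27591 with gag. The gag-pol libraries were all below the control libraries. The fold change was -0.24 ± 0.08 (adjusted p = 0.0497), close to the threshold, and the call was lost in 13 of the 15 reduced fits. The paralog *HNRNPLL* gave -0.22 (adjusted p = 0.159).

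With NC, 5 genes were called against control: *SRSF12* and *HNRNPA1* rose, and *SRSF10*, *HNRNPH1* and *TRA2A* fell. This is 13.5% of the 37, beside 11.2% of all genes tested, 6.04% higher and 5.15% lower. No splicing factor was called without the replicate number in the fit. The same held without control replicate 3, NC replicate 3 or all libraries of replicate number 1. The share of all genes called is not given for these fits either. *SRSF12* changed by 0.53 ± 0.12 (adjusted p = 0.00992), *SRSF10* by -0.27 ± 0.08 (adjusted p = 0.0364) and *HNRNPH1* by -0.25 ± 0.08 (adjusted p = 0.0472). The call of *SRSF12* held in 11 of the 15 reduced fits, that of *SRSF10* in 6, with values from -0.35 to -0.15, and that of *HNRNPH1* in 3. The comparisons of gag-pol and NC share their control libraries.

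*HNRNPA1* had 50759, 50564 and 39327 normalized counts in control and 57551, 61932 and 51583 with NC. It had 53067, 53800 and 52762 with gag-pol and 42527, 41883 and 42302 with gag. The NC and gag-pol libraries were all above the control and gag libraries, and control replicate 3 was the lowest of the 12. The NC fold change was 0.29 ± 0.09 (adjusted p = 0.0358), and that of gag-pol was 0.19 (adjusted p = 0.156). The NC call held in 6 of the 15 reduced fits. *HNRNPA1* has processed pseudogenes of near-identical sequence, so its count is uncertain. The listed copy *HNRNPA1P10*, with 832 to 1179 normalized counts, gave 0.18 with NC (adjusted p = 0.268). The paralog *HNRNPA2B1* gave 0.11 (95% interval -0.05 to 0.27).

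*TRA2A* had 3673, 2446 and 3120 normalized counts in control, 3128, 2103 and 2378 with NC, 3247, 2470 and 2044 with gag-pol, and 4004, 2822 and 2752 with gag. Replicate 1 was highest with every construct, and NC was below control in each replicate number although the groups overlapped. The NC fold change was -0.28 ± 0.09 (adjusted p = 0.0482), and the call was lost in 12 of the 15 reduced fits. Its paralog *TRA2B* gave -0.10 (95% interval -0.26 to 0.06).

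With gag, no splicing factor passed the threshold in edgeR or in DESeq2, and 2 had an unadjusted p under 0.05. Of all genes tested 1.08% were called. The 2 genes were *TRA2B*, with 0.22 (adjusted p = 0.194), and *HNRNPM*, a regulator of exon skipping, with -0.19 (adjusted p = 0.220). *SRSF12* gave 0.22 with gag (95% interval -0.04 to 0.48), and its difference between gag-pol and gag, 0.30, did not pass (adjusted p = 0.150). For *SRSF10* the value was 0.01 (95% interval -0.16 to 0.18). *HNRNPA1* changed by -9.41% with gag (95% interval -20 to 2.57%), and was called in 1 of the 15 reduced fits, that without replicate number 3.

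**Figure D2:**
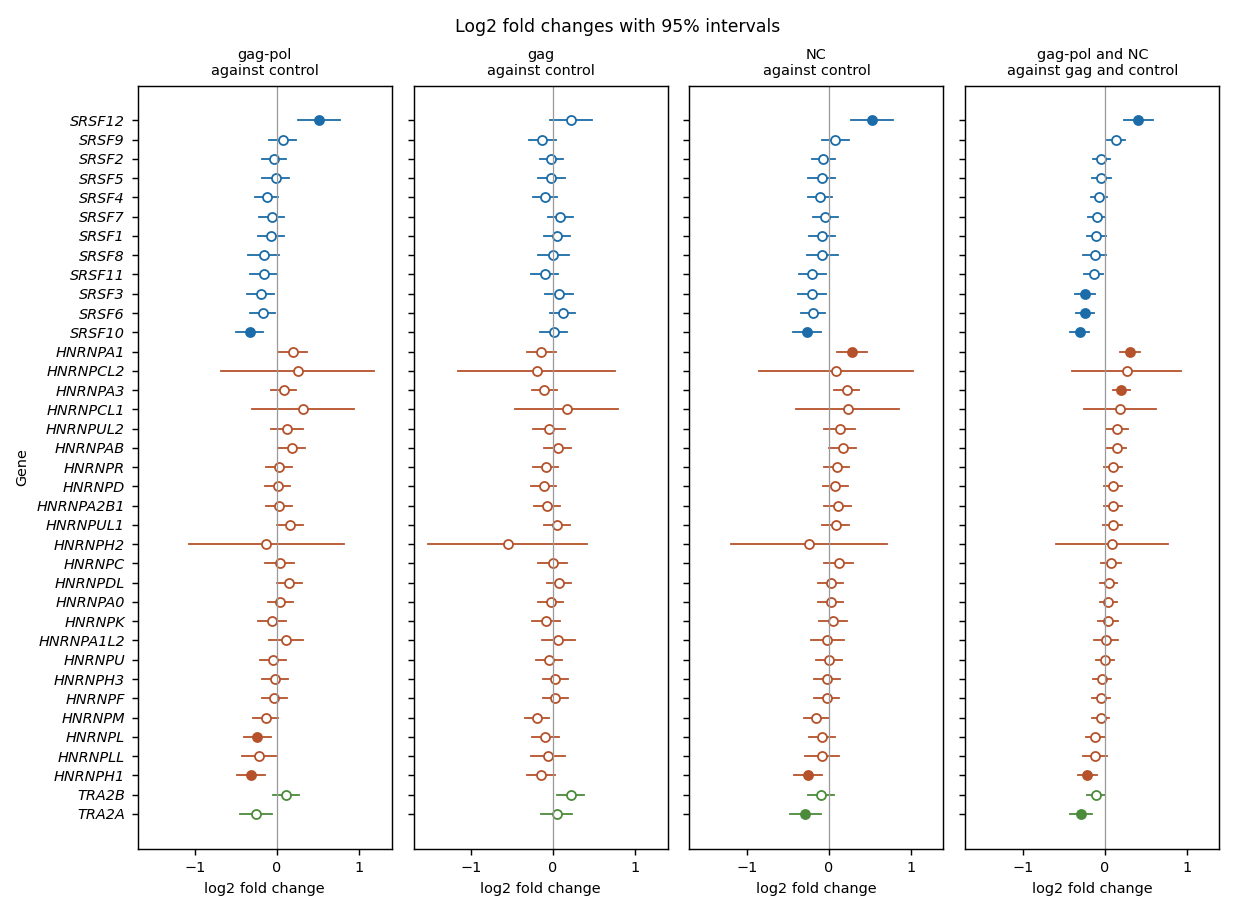
Log2 fold changes (points) with 95% intervals (lines) of the 37 tested genes in 4 comparisons, with filled points past an adjusted p of 0.05. *SRSF12* lies to the right in all 4 panels, and the other filled SR points lie to the left. The 3 widest intervals belong to *HNRNPH2*, *HNRNPCL1* and *HNRNPCL2*, which had low counts.

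Cells with gag-pol and NC were then compared, as a mean, with cells with gag and control. Of the 37 genes 8 were called, 21.6%, beside 24.7% of all genes tested, 13.1% higher and 11.6% lower. *HNRNPA1*, *HNRNPA3* and *SRSF12* rose, and *SRSF3*, *SRSF6*, *SRSF10*, *HNRNPH1* and *TRA2A* fell. The calls of *HNRNPA1* (0.31 ± 0.06, adjusted p = 0.00108), *HNRNPA3*, *SRSF10* (-0.30 ± 0.06, adjusted p = 0.000715) and *TRA2A* (-0.29 ± 0.07, adjusted p = 0.00258) held in all 15 reduced fits. *SRSF12* changed by 0.41 ± 0.09 (adjusted p = 0.00188) and *HNRNPH1* by -0.21 ± 0.06 (adjusted p = 0.00934), and these calls were lost only without replicate number 3 and number 2 respectively. Within every replicate number, both gag-pol and NC lay above both gag and control for *HNRNPA1*, *HNRNPAB* and *HNRNPUL2*, 8.11% of the 37, and below them for *SRSF3*, *SRSF6* and *SRSF10*, also 8.11%. Over all genes tested these shares were 7.38% and 5.76%.

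*SRSF3*, the smallest SR protein, had 15825, 12502 and 14978 normalized counts in control and 18111, 12234 and 15550 with gag, against 14921, 10882 and 12057 with gag-pol and 13235, 12086 and 11993 with NC. *SRSF6*, a larger SR protein, had 9234, 6204 and 7887 in control and 10580, 6816 and 8034 in gag libraries, against 8414, 5945 and 6288 for gag-pol and 7984, 5757 and 6621 for NC. Both genes were lower with gag-pol and NC than with gag and control within every replicate number, although the groups overlapped across replicate numbers. *SRSF3* changed by -0.24 ± 0.06 (adjusted p = 0.00445) and *SRSF6* by -0.24 ± 0.05 (adjusted p = 0.00178), with calls that held in 13 and 14 of the 15 reduced fits and were lost without replicate number 1 and, for *SRSF3*, also without number 3. Against control alone neither passed, with adjusted p-values of 0.114 and 0.120 for gag-pol and 0.104 and 0.0901 for NC. The paralog of *SRSF3*, *SRSF7*, gave -0.10 (95% interval -0.21 to 0.01), and *SRSF4*, a relative of *SRSF6*, gave -0.07 (95% interval -0.17 to 0.03).

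*HNRNPA3*, a relative of *HNRNPA1*, had 14326, 13908 and 10859 normalized counts in control and 13037, 12609 and 10626 with gag. It had 13827, 14356 and 12944 with gag-pol and 16147, 15743 and 13497 with NC. NC was the highest and gag the lowest in every replicate number. The fold change of the pairs was 0.20 ± 0.05 (adjusted p = 0.00662). Of the merged exon length of *HNRNPA3*, 54.8% is shared with other genes, mostly *NFE2L2* on the other strand, and the strand setting of the counting is not given, so its count is uncertain.

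**Figure D3:**
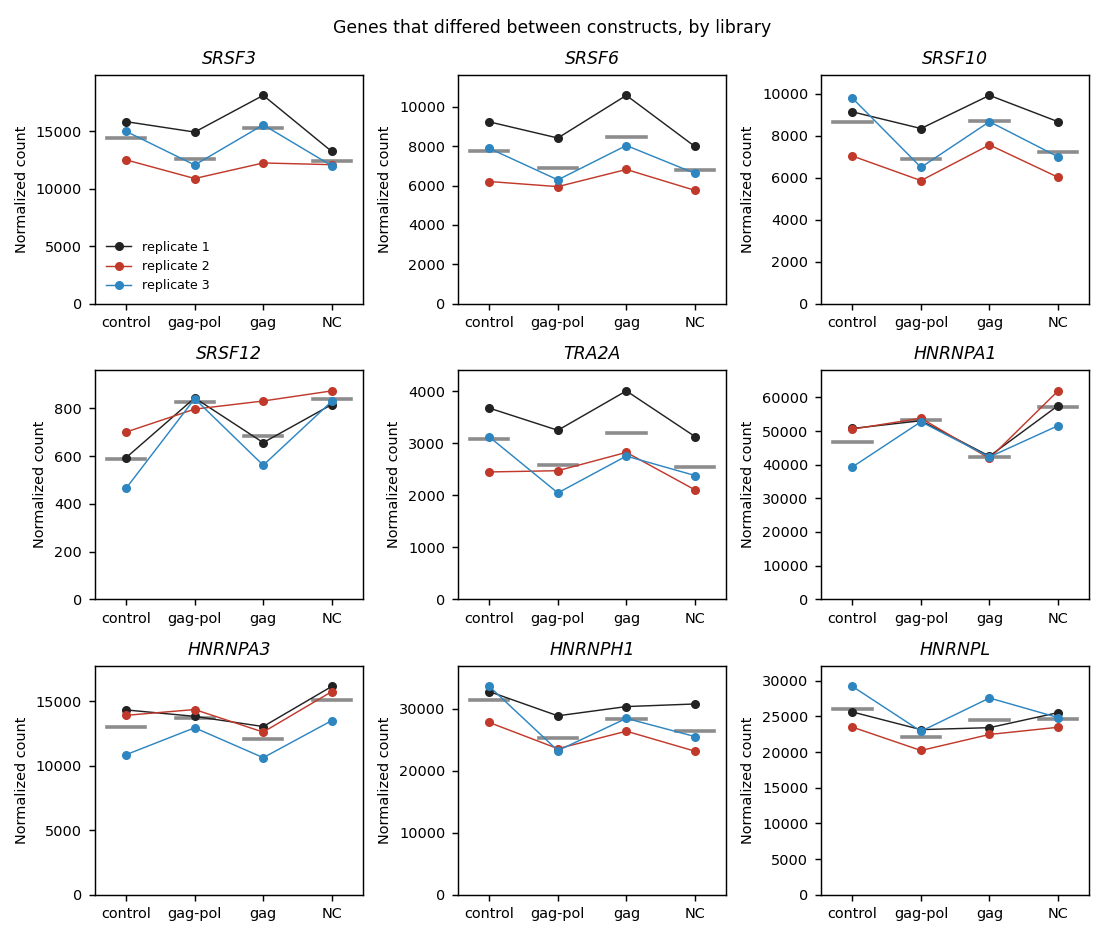
Normalized counts of the 9 genes that passed the threshold against control or between the pairs of constructs, with 1 line per replicate number and grey bars for the group means. *SRSF3*, *SRSF6* and *SRSF10* dip at gag-pol and NC on every line, *HNRNPA1* peaks there, and replicate 1 lies highest for *SRSF6* and *TRA2A*.

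The constructs were also compared directly. NC against gag called 7 genes, 18.9%, beside 16.9% of all genes, 8.76% higher and 8.12% lower. *HNRNPA1* (0.43 ± 0.09, adjusted p = 0.00254) and *HNRNPA3* (0.32 ± 0.07, adjusted p = 0.00512) rose, and *SRSF3*, *SRSF6*, *SRSF10*, *TRA2A* and *TRA2B* fell by 0.28 to 0.33 on the log2 scale. Of the 15 reduced fits, the calls of *HNRNPA1* and *HNRNPA3* held in 14, that of *SRSF6* in 12 and those of *SRSF3*, *SRSF10* and *TRA2A* in 9, and none held without replicate number 1. *TRA2B* had 6751, 5342 and 5223 normalized counts with NC and 9644, 5890 and 6336 with gag. The number of reduced fits that kept the *TRA2B* call is not given. Gag-pol against gag called 4 genes, 10.8%, beside 6.46% of all genes, 3.03% higher and 3.42% lower: *HNRNPA1* rose by 0.33 ± 0.09 (adjusted p = 0.0239), and *SRSF10*, *SRSF6* and *SRSF3* fell. The *SRSF3* call held in only 3 of the 15 reduced fits and was lost without robust estimation (adjusted p = 0.0556), and those of *HNRNPA1*, *SRSF10* and *SRSF6* held in 9, 10 and 10. NC against gag-pol called none in edgeR or DESeq2, with 1 unadjusted p under 0.05, that of *TRA2B*, beside 0.0873% of all genes. The 95% intervals there reached a median of 0.163 to either side on the log2 scale. In the test of any difference among the 4 groups, 9 genes passed, 24.3%, beside 20.6% of all genes: the 8 called between the pairs and *TRA2B*.

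The 250 bases upstream of the start that RefSeq gives are shown for the SR genes called between the pairs of constructs, to set the 3 that fell beside the 1 that rose. They come from the RefSeq promoter table on GRCh38.p14 and read 5′ to 3′ on the strand of the gene. Capitals mark, on either strand, the CCAAT box, the GC box (GGGCGG), the TATA box (TATAAA), the core of the cyclic AMP response element (TGACGT) and the E-box (CACGTG). *SRSF3* lies on the forward strand at chr6:36594112-36594361, *SRSF6* on the forward strand at chr20:43457646-43457895, *SRSF10* on the reverse strand at chr1:23980328-23980577 and *SRSF12* on the reverse strand at chr6:89118072-89118321. The GENCODE spans given above start elsewhere: the *SRSF10* window lies wholly inside the GENCODE gene, downstream of its outermost start, the windows of *SRSF3* and *SRSF6* run a few bases into the gene, and that of *SRSF12* adjoins it.
SRSF3: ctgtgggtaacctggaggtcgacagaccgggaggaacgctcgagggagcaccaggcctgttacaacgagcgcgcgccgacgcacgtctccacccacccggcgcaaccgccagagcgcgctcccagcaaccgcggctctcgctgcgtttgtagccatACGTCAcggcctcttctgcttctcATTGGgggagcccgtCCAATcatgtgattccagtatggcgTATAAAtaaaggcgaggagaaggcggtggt
SRSF6: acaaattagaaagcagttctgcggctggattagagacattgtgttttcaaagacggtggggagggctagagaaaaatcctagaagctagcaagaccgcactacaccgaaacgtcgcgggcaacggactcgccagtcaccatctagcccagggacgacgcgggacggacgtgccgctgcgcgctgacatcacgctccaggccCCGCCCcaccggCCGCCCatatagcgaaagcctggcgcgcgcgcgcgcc
SRSF10: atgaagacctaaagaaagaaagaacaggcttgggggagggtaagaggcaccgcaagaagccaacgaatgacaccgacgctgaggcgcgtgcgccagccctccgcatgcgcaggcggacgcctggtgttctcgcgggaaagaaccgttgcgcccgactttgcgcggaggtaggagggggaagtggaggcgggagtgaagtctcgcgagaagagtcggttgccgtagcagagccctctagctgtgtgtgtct
SRSF12: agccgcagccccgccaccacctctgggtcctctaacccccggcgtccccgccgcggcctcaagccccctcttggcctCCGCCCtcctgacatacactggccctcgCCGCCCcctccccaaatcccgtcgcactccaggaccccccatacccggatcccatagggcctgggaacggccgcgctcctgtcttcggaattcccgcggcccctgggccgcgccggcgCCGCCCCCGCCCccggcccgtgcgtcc

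The *SRSF3* window held 2 CCAAT, 1 TATAAA and 1 TGACGT match, that of *SRSF6* 2 GGGCGG matches and that of *SRSF10* none. The *SRSF12* window held 4 GGGCGG matches and was 75.6% G and C, against 61.2 to 62.4% in the other 3. A link between these motifs and the direction of change was not tested. CCAAT was found in 47.9% of the 48 promoters of the 34 splicing-factor genes with an entry and in 32.4% of the 17506 promoters of tested genes. GGGCGG stood in 58.3% and 60.4%, TATAAA in 12.5% and 6.54%, TGACGT in 14.6% and 8.74%, and CACGTG in 14.6% and 7.92%. None of these motifs contains another. Of the 11 SR genes with an entry, 2 had CCAAT, 4 GGGCGG, 3 TATAAA, 3 TGACGT and none CACGTG. *HNRNPA1*, *TRA2A* and *SRSF2* had no entry.

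The genes that were not called are given by their range. Leaving aside the 3 genes with low counts, 30 were not called with gag-pol, from -0.26 (*TRA2A*) to 0.19 (*HNRNPA1*), and 29 with NC, from -0.21 (*SRSF3*) to 0.22 (*HNRNPA3*). With gag, all 34 were not called, from -0.19 (*HNRNPM*) to 0.22 (*SRSF12*). The 95% interval lay within 0.5 of 0 on the log2 scale for 33 of 37 genes for gag-pol, 34 for gag and 33 for NC. In simulated data, 74% of changes of 0.5 and 12% of changes of 0.25 between gag-pol and control were recovered. There 100 genes of each size were changed among 16915 tested, a smaller share than the 11.3% called in the data. The adjustment was therefore stricter, and these shares do not give the recovery in the data. A gene that was not called may still differ.

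Among SR genes, 10 of 12 fold changes were below 0 with gag-pol and 10 of 12 with NC, with medians of -0.10 and -0.08, beside medians of -0.00135 and 0.00401 over all genes tested. The exceptions were *SRSF12* and *SRSF9*. Of the merged exons of *SRSF9*, 46.7% is shared with other genes, mostly *GATC*, and the shared part is 27.7% for *SRSF2* and 44.3% for *HNRNPUL2*, so these counts are uncertain too. With gag, 5 of 12 were below 0 and the median was 0.00852. The 23 hnRNP genes tested had medians of 0.03 for gag-pol, 0.05 for NC and -0.06 for gag. SR genes together took 0.236 to 0.285% of the counts other than *PEG10* in control and 0.247 to 0.306% with gag. Their share was 0.219 to 0.277% with gag-pol and 0.213 to 0.266% with NC. These ranges overlapped, but within each replicate number gag-pol and NC were below gag and control. The hnRNP genes took 1.01 to 1.21% in control and 1.02 to 1.22% with NC, and the TRA2 genes 0.0213 to 0.0309% and 0.0194 to 0.0273%.

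**Figure D4:**
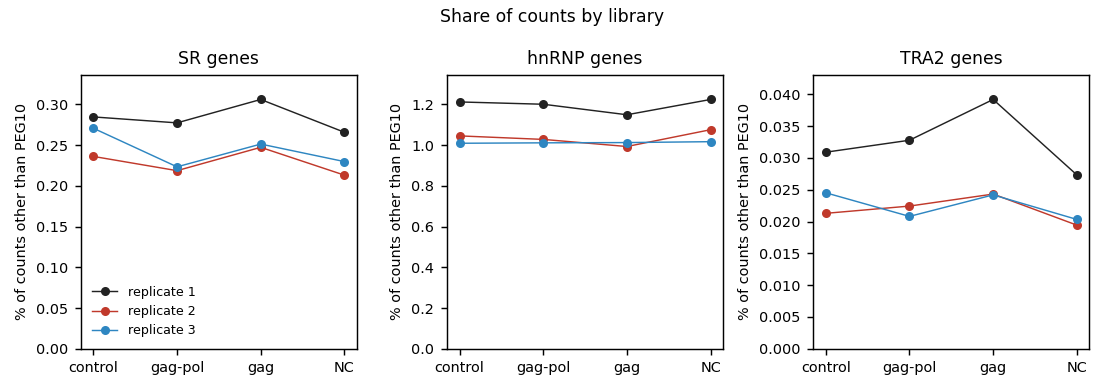
Summed counts of the SR, hnRNP and TRA2 genes as a percentage of the counts other than *PEG10*, with 1 line per replicate number. The SR lines fall at gag-pol and NC, with means of 0.240 and 0.236 against 0.264 in control, while the hnRNP means run from 1.05 to 1.11 and replicate 1 is highest in all 3 panels.

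Many of these genes also differed between replicate numbers. Between them 23 of 37 genes passed the threshold, 62.2%, beside 52.8% of all genes tested. Replicate 1 had the highest mean in 29 of the 37 genes, 78.4%, and in 37% of all genes. In *SRSF2*, *SRSF7*, *TRA2A*, *TRA2B*, *HNRNPA2B1*, *HNRNPH3*, *HNRNPLL* and *HNRNPU*, all 4 libraries of replicate 1 lay above the other 8. These genes are 21.6% of the 37, beside 4.47% of all genes tested. Relative to replicate 1, replicate 2 was lower by 0.55 ± 0.06 on the log2 scale for *SRSF6* (adjusted p = 1.86e-06), by 0.51 ± 0.08 for *TRA2A*, by 0.50 ± 0.07 for *TRA2B* and by 0.45 ± 0.07 for *SRSF10*. Replicate 3 was lower by 0.46 ± 0.07 for *TRA2B*, by 0.43 ± 0.06 for *SRSF7*, an SR protein with a zinc knuckle, and by 0.33 ± 0.06 for *SRSF6*. These differences were larger than any fitted between constructs in the same genes. Between replicates 3 and 2, 6 of the 37 genes passed, *HNRNPA3*, *HNRNPD*, *HNRNPL*, *HNRNPM*, *SRSF6* and *SRSF10*, beside 27.1% of all genes tested. In the fit without replicate 1, 2 of them passed, *HNRNPA3* and *SRSF10*, beside 21.2% of all genes. The 8 genes without their highest mean in replicate 1 were *SRSF4*, *SRSF11*, *SRSF12*, *HNRNPA0*, *HNRNPA1*, *HNRNPH2*, *HNRNPL* and *HNRNPUL2*.

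**Figure D5:**
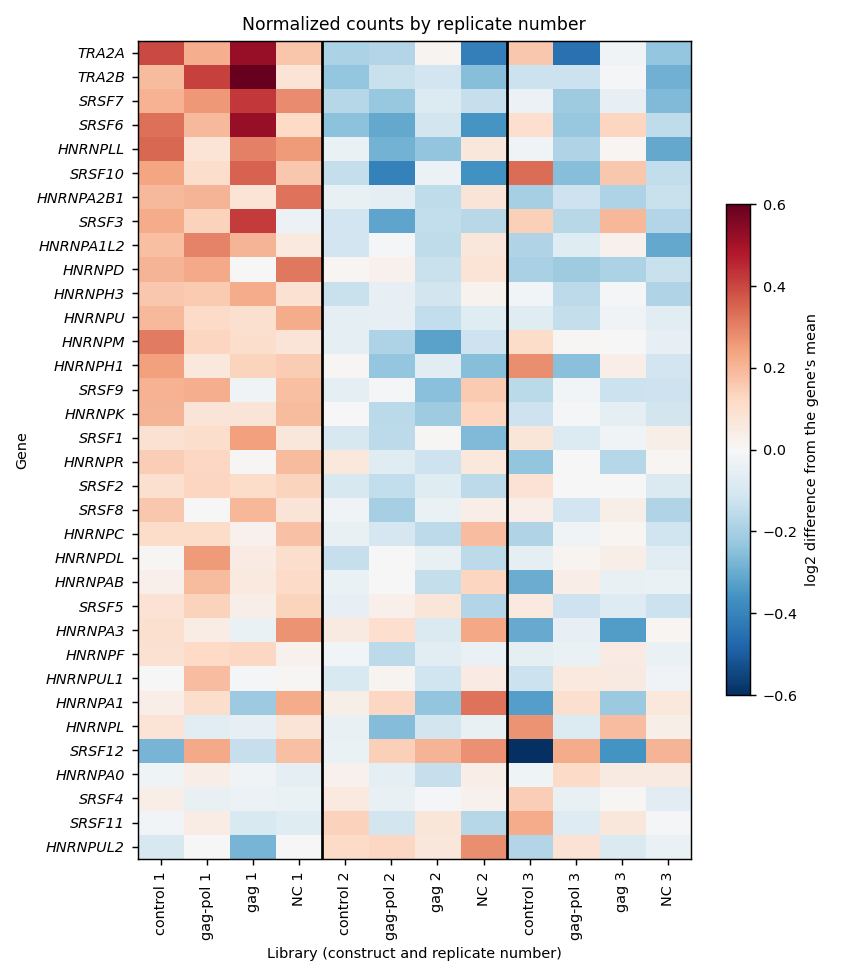
Log2 difference of the normalized count from the gene's mean over the 12 libraries for the 34 genes with a mean of at least 500, ordered by replicate 1 against the others, with black lines between replicate numbers. The 4 columns of replicate 1 are red for most genes, and the darkest blue is *SRSF12* in control replicate 3.

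Other genes of the splicing pathway are given by count, beside the 11.3% of all genes tested called with gag-pol, 11.2% with NC and 16.9% between NC and gag (8.12% lower). Of 11 SR protein kinases, phosphatase and importers, *SRPK1*, the cytoplasmic kinase of SR proteins, rose with gag-pol (0.33 ± 0.08, adjusted p = 0.00814) and NC (0.28 ± 0.08, adjusted p = 0.0260) and no other was called against control. Between NC and gag, 3 of them were lower with NC: *CLK1*, *CLK4* and *DYRK1A*, nuclear kinases that phosphorylate splicing factors, fell by 0.58, 0.39 and 0.42 on the log2 scale. Of 10 hnRNPs named otherwise, *RALY*, an hnRNP C relative, rose with gag-pol (0.26) and NC (0.35), and *RBMX* rose with NC (0.25). Of 18 splice site recognition genes, *U2AF2*, the large subunit that binds the polypyrimidine tract, fell by 0.38 with gag-pol and by 0.34 with NC. *SNRNP70*, a protein of the U1 particle, fell by 0.25 and *RNPS1*, an exon junction protein, rose by 0.24, both with gag-pol. Of 21 other regulators tested, *RBFOX3* (0.77) rose and *NOVA1* (-0.46) and *RBM10* (-0.34) fell with gag-pol, as the 3 largest of 4 called, and *MBNL3* was the 1 called with NC (0.42). The other lists had calls between NC and gag too: 3 of the 10 hnRNPs named otherwise, 3 of the 18 splice site recognition genes and 4 of the 21 other regulators. None of these lists had a gene called with gag against control, in edgeR, where 0 to 4 genes a list had an unadjusted p under 0.05.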

How the data were processed

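Per the labels and the study's methods, the authors prepared poly(A) libraries, aligned reads with STAR 2.7.3 to build GRCh38.p13, sorted them with SAMtools 1.8 and counted reads per gene with featureCounts. The deposited values are raw counts per gene symbol, 1 column per library. The annotation release, strand setting and handling of multiply mapped reads are not given in the sources used here. The methods modelled construct and harvest date; here the replicate number stood for the latter, and the design text speaks of separate passages without tying a number to one. Same-numbered libraries resembled each other after construct means were removed (correlations of 0.138 to 0.539 in 18 pairs, against -0.498 to 0.072 in 36 others). Removing the means ties the libraries of a construct together, so positive correlations of same-numbered pairs make the others lower. The ranges are therefore not independent.

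Counts were normalized by TMM and filtered (minimum count 10, minimum total 15, by construct), and 1 quasi-likelihood fit (edgeR 4.0.16, R 4.3.3) of construct and replicate number was made to all 12 libraries, with 6 residual degrees of freedom. P-values were adjusted by Benjamini-Hochberg over the 17176 genes tested, at a threshold of 0.05. Errors of fold changes are SEs. DESeq2 1.42.0, other normalizations and filters, no replicate block, and fits without each library or replicate number were alternatives. The fit was tested on simulated data. Gene positions are from GENCODE on GRCh38. Genes called against control or between pairs of constructs are given in every library, each with a relative, which is not always the closest. The members and lists were chosen with earlier results of these data known. P-values set a difference against the spread between libraries that remained after construct and replicate number were fitted. The labels of single libraries name no passage or date.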

Additional observations from a re-analysis of the deposited data

How the results depend on the processing

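The numbers of splicing factors called depended most on the replicate block. Without the replicate block no splicing factor passed in any comparison of constructs, 0 against 4 for gag-pol, 5 for NC, 8 between the pairs, 7 for NC against gag, 4 for gag-pol against gag and 9 for any construct. With only the libraries of the compared groups, gag-pol against control called 2 and gag-pol against gag 8. Leaving out each library or replicate number in turn gave 0 to 4 calls for gag-pol against control, 0 to 1 for gag, 0 to 6 for NC, 6 to 10 between the pairs, 0 to 13 for NC against gag, 0 to 5 for gag-pol against gag, 0 to 11 for any construct and 2 to 24 for replicate numbers. The gag-pol count was 0 without control replicate 3, gag-pol replicate 3, replicate 1 or replicate 3, and 2 without gag-pol replicate 1. The NC count was 0 without control replicate 3, NC replicate 3 or replicate 1, and 1 to 3 without control replicate 2, gag-pol replicate 1, gag replicate 1 or 2, NC replicate 1 or 2, replicate 2 or replicate 3. NC against gag gave 0 without replicate 1 and 13 without replicate 3, and gag-pol against gag gave 0 without gag-pol replicate 3, gag replicate 1 or replicate 1. Of 212 counts under alternatives, 173 were within 1.5 times the main count and 39 were not. DESeq2, other normalizations, other filters, no robust estimation and counts without *PEG10* kept all counts within 1.5 times. For the genes called against control or between the pairs, no fold change reversed in a comparison that called the gene. Apart from the test of replicate numbers without replicate 1, the share of all genes called in these fits is not given. The shifts therefore cannot be read as particular to splicing factors. Their cause was not tested.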
